A study of Mus musculus with 12 samples.

Results

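Glutamate receptors other than the NMDA type, together with glutamate transporters and the scaffold proteins of the glutamatergic synapse, were followed in the adult mouse hypothalamus as 35 genes of 17186 tested. The genes were listed by name for their roles, with earlier results of these data known. They comprised 17 receptors (4 AMPA receptor subunits, 5 kainate receptor subunits, 1 delta receptor subunit and 7 metabotropic receptors), 8 transporters (5 of the plasma membrane and 3 of synaptic vesicles) and 10 scaffolds (3 Homer, 3 Shank and 4 membrane-associated guanylate kinase, or MAGUK, genes). The study asked how lifelong aspartame and blockade of the NMDA receptor (NMDAR) during development affect hypothalamic gene expression. Male C57Bl/6J mice aged 21 weeks were used throughout, and no allele or transgene was involved. Control mice (CON) received neither agent. ASP mice received the sweetener aspartame at 46 mg/kg body weight in the drinking water, beginning in utero through the mother. CGP mice were exposed to CGP 39551, a competitive NMDAR antagonist, at 5 mg/kg from conception to postnatal day 28 through the mother, and ASP+CGP mice received both agents. Each of the 4 groups was represented by 1 pool of RNA from its mice, measured on 3 arrays. The p-values given here thus describe how far repeat arrays of the pools spread, not how far mice differ, and treatment and other differences between the pools cannot be told apart.

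Glutamate is the main excitatory transmitter of the brain. It is loaded into vesicles by the VGLUT proteins (Slc17a6, Slc17a7 and Slc17a8), acts on ligand-gated channels of the AMPA, kainate and NMDA types and on G protein-coupled metabotropic receptors, and is cleared by uptake carriers of the Slc1a family, chiefly on astrocytes. Behind the postsynaptic membrane, MAGUK proteins such as PSD-95 (Dlg4) hold the receptor channels, and Shank and Homer proteins link them to the metabotropic receptors and the actin skeleton. In the hypothalamus these synapses drive the neurons that control feeding, stress hormones and body weight. VGLUT2 (Slc17a6) is the prevailing vesicular form of hypothalamus and thalamus, whereas VGLUT1 (Slc17a7) prevails in cortex, hippocampus and cerebellum.

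The promoters of 4 members are shown. Slc17a7 had the largest difference from CON among the 35 genes. Gria2, Grik2 and Homer1 were the members called in the test of an interaction between aspartame and CGP. These calls did not hold in every fit. RefSeq promoter sequences (GRCm38.p6) were at hand for 27 of the 35 members, and the 250 bases before the start of the gene are given 5′ to 3′ on the strand of the gene. They lie at chr7:45163671-45163920 on the plus strand (Slc17a7), chr3:80802836-80803085 on the minus strand (Gria2), chr10:49788755-49789004 on the minus strand (Grik2) and chr13:93303507-93303756 on the plus strand (Homer1). Capitals mark matches on either strand to the letters GGGCGG (GC box) or TGACG (core of the cyclic AMP response element).
Slc17a7: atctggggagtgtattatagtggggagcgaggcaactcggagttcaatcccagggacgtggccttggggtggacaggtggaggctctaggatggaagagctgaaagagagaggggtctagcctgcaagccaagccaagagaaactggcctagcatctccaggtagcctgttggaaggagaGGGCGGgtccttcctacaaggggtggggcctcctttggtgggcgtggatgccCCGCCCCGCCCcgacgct
Gria2: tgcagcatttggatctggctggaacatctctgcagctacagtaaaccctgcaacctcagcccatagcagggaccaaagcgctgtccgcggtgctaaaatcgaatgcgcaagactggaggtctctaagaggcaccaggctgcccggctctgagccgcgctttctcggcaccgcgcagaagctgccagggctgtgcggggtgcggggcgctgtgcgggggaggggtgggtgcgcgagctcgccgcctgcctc
Grik2: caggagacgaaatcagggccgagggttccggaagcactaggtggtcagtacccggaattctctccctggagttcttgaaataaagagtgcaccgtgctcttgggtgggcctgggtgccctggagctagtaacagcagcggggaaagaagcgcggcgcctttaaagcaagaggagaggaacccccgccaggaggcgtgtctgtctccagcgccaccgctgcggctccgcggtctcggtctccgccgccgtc
Homer1: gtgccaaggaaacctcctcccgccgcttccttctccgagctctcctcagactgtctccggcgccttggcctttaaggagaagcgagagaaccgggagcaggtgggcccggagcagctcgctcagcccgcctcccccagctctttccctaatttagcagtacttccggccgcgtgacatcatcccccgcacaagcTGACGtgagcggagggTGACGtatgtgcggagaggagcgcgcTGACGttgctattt
The Slc17a7 window held 3 matches to GGGCGG, a pair of them adjoining close to the start, and 32.7% of 32851 RefSeq promoters hold at least 1. The Homer1 window held 3 matches to TGACG, against 17.8% of promoters with at least 1. The Gria2 and Grik2 windows held neither set of letters, and none of the 4 windows held the E-box letters CAGCTG (13% of promoters) or the TATA box letters TATAAA (12.4%). A match describes letters only, and the arrays did not measure what binds there.

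All 35 members were measured at a log2 RMA signal of 6 or more on every array, with a range from 6.87 (Slc17a8) to 12.56 (Slc1a2). The dissection was checked against marker genes. The 15 measured of 16 hypothalamus markers reached 6 on all arrays, and their mean signal per array was 10.3 to 10.4 in CON, 10.13 to 10.14 in CGP, 10.19 to 10.21 in ASP and 10.1 to 10.12 in ASP+CGP. The 12 thalamus markers averaged 10.06 to 10.11 in CON and more in every other pool (10.34 to 10.35 in CGP, 10.21 to 10.24 in ASP and 10.35 to 10.36 in ASP+CGP). Markers of adrenal cortex, exocrine pancreas and adipose tissue were raised in the ASP pool, with means of 9.947 to 9.996 over 11 adrenal cortex genes against 6.711 to 6.791 on the arrays of the other pools. Adrenal medulla markers were also higher in ASP (7 of 7 called). Pituitary markers differed between all pools, with means of 9.856 to 10.02 in CON, 10.62 to 10.64 in CGP, 10.77 to 10.8 in ASP and 8.677 to 8.874 in ASP+CGP. In the CON and the ASP+CGP pool the array numbered 3 stood apart from the other two, and results that rest on these arrays are also given without both (hereafter, without the outlying arrays). The third ASP+CGP array was the lowest of its pool for 26 of the 35 members, against 44.6% of all genes, and the third CON array for 19 of the 35, against 30.8% of all genes. Both arrays were singled out by their values in these data, and the labels do not set them apart. Leaving out an array raises the pool mean of every member for which it was the lowest, and lowers that of every member for which it was the highest. Counts without the outlying arrays are thus no independent support.

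**Figure D1:**
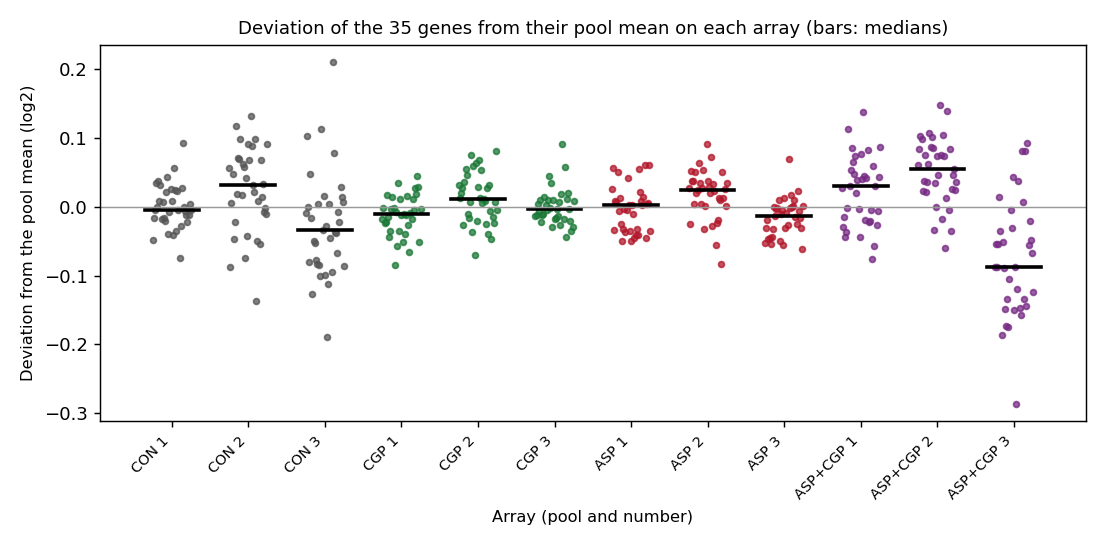
Deviation of each of the 35 genes from the mean of its pool, in log2 units, on each of the 12 arrays (points, genes; black bars, medians over the genes). The third ASP+CGP array has the lowest median (-0.0875) and the widest spread downwards (to -0.287).

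Differences between pools were small for these genes. A gene counted as called in a contrast when its p in the limma fit, adjusted over all 17186 genes by Benjamini-Hochberg, was under 0.05. When a fold change over 1.4 was also asked for, 0 of 35 members were called in any contrast. Among all genes, 1.05% passed both criteria in ASP vs CON, 0.111% in CGP vs CON, 0.18% in ASP+CGP vs CON, 1.27% in ASP vs ASP+CGP and 1.5% in the interaction of ASP and CGP. Without the fold criterion, 6 of 35 members differed among the 4 pools by the F test, namely Gria2, Gria3, Grm7, Slc17a7, Homer1 and Shank3, against 6.69% of all genes. The same test gave an unadjusted p under 0.05 for 18 of 35 members and 3858 of 17186 genes. The adjusted count moved with the arrays used, to 15 members (12% of all genes) without the outlying arrays and to between 1 and 10 when single arrays were left out. It was 19 (18% of all genes) with array weights and 2 (12% of all genes) with arrays centred on neuron markers. In bulk tissue, fewer cells of a type and less RNA per cell cannot be told apart.

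**Figure D2:**
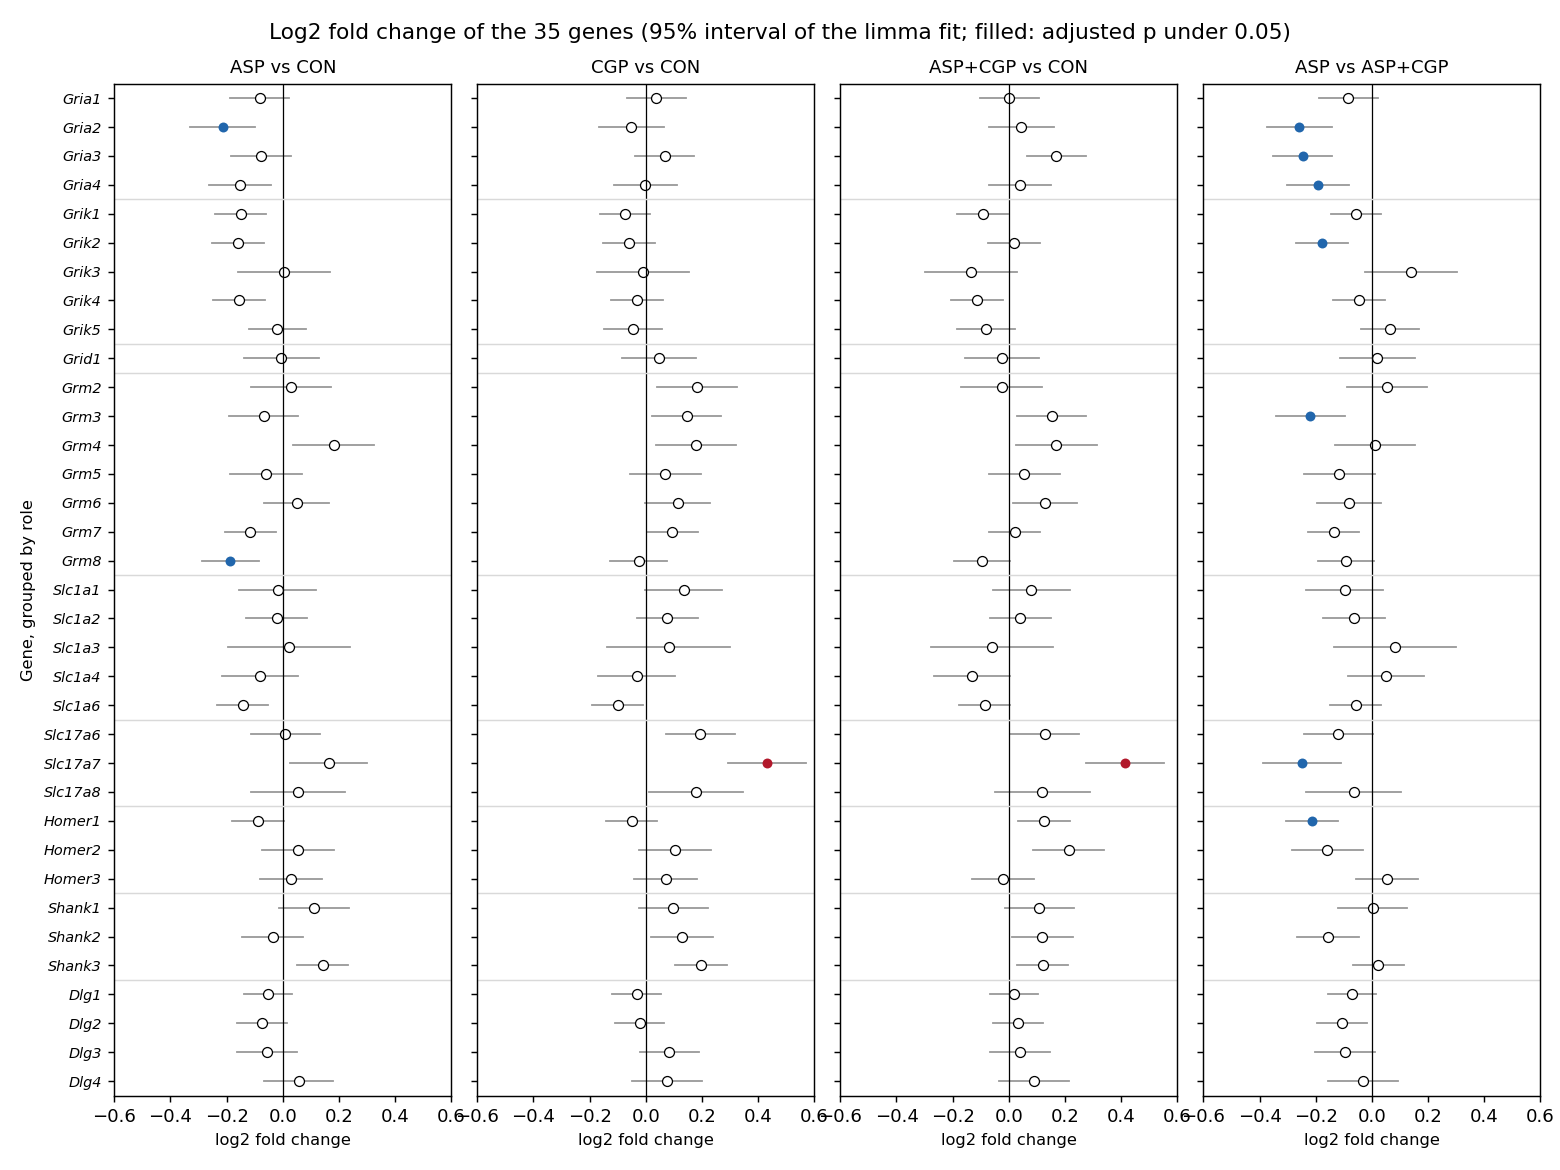
Log2 fold change of each of the 35 genes (rows, grouped by role) in 4 contrasts (columns), with 95% intervals of the limma fit as lines. Filled circles mark adjusted p under 0.05 (red, higher; blue, lower), and all intervals stay within a log2 fold change of 0.6 in either direction; Slc17a7 is the only filled circle in the 2 middle panels.

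The vesicular transporter gene Slc17a7, which encodes VGLUT1, was higher in both pools with CGP. Its log2 signals were 9.95, 10.05 and 9.86 in CON and 10.36, 10.39 and 10.40 in CGP. They were 10.08, 10.14 and 10.14 in ASP and 10.45, 10.44 and 10.21 in ASP+CGP. The CGP and ASP+CGP arrays all lay above every CON and every ASP array, and the ASP arrays lay just above the CON arrays. The log2 fold change was 0.43 ± 0.06 (SE, n = 3 arrays per pool; 1.35-fold, adjusted p = 0.0057) in CGP vs CON and 0.41 ± 0.06 (1.33-fold, adjusted p = 0.0041) in ASP+CGP vs CON. In ASP vs CON it was 0.16 ± 0.06 (adjusted p = 0.21), and in ASP vs ASP+CGP the signal was lower by a log2 fold change of -0.25 ± 0.06 (adjusted p = 0.032). Slc17a7 was thus 1 of 35 members called higher in CGP vs CON, against 0.489% of all genes, and 1 of 35 in ASP+CGP vs CON, against 0.826% of all genes. No member was called lower in either contrast, where 0.14% and 0.919% of all genes were, and 10 and 12 members, in either direction, had an unadjusted p under 0.05, against 11.6% and 15.4% of all genes. Both differences from CON stayed called when any of the 12 arrays was left out. With the spread taken from the groups compared alone, the adjusted p in ASP+CGP vs CON was 0.098, and without moderation of the spread it was 0.053 in CGP vs CON.

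The other vesicular transporter genes passed no test over the 12 arrays. Slc17a6, the VGLUT2 gene, had log2 signals of 11.07, 11.06 and 11.00 in CON, 11.25, 11.25 and 11.21 in CGP, 11.02, 11.08 and 11.05 in ASP, and 11.21, 11.28 and 11.02 in ASP+CGP. The CGP arrays lay above all CON arrays, with a log2 fold change of 0.19 ± 0.06 (adjusted p = 0.19), while the third ASP+CGP array fell among the CON arrays. Slc17a8, the VGLUT3 gene, had the third CON array above both others (6.93, 6.87 and 7.21) and 7.11, 7.16 and 7.27 in CGP, a log2 fold change of 0.18 ± 0.08 (adjusted p = 0.4). Without the outlying arrays, Slc17a6 (0.17 ± 0.04, adjusted p = 0.048) and Slc17a8 (0.28 ± 0.05, adjusted p = 0.025) were called higher in CGP vs CON beside Slc17a7 (0.38 ± 0.04, adjusted p = 0.0012). For Slc17a8, which had the lowest signal of any member (6.87), leaving out the third CON array lowered the CON mean. With Shank3, 4 members were then called in CGP vs CON, against 1.52% of all genes called higher. In ASP+CGP vs CON, 7 members were then higher, against 2.56% of all genes, namely Slc17a7 (0.44 ± 0.04), Slc17a6 (0.18 ± 0.04), Gria3, Grm3, Grm4, Homer1 and Homer2. With the array number as a block for these 2 pools, 3 members were higher in ASP+CGP vs CON, Slc17a7 (0.413, adjusted p = 0.0002), Homer2 (0.213, adjusted p = 0.029) and Grm4 (0.169, adjusted p = 0.043). In that fit 4.29% of all genes were called in either direction, against 1.75% without the block.

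**Figure D3:**
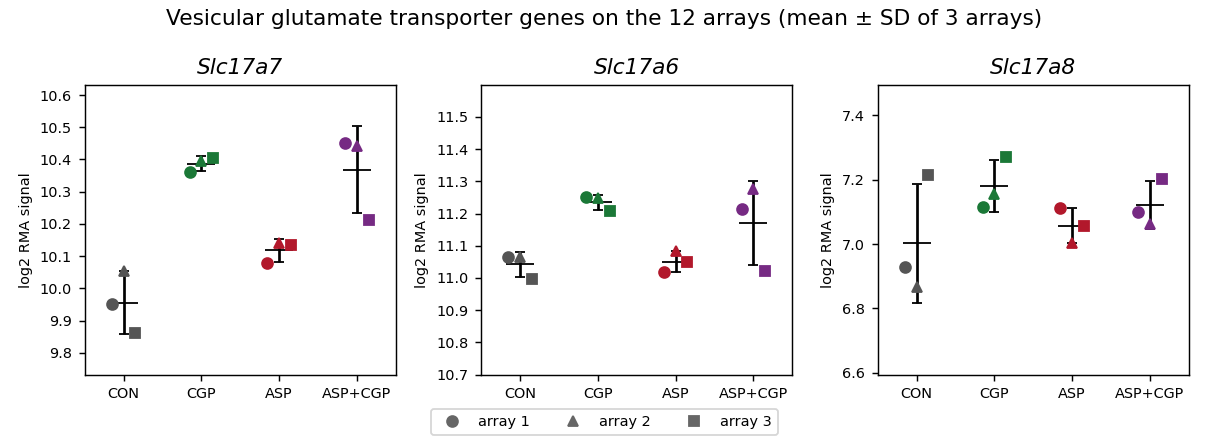
Log2 RMA signal of Slc17a7, Slc17a6 and Slc17a8 on the 3 arrays of each pool (symbols number the arrays; bars, mean ± SD), each panel spanning the same log2 range. The CGP and ASP+CGP arrays of Slc17a7 (10.21 to 10.45) lie above the CON and ASP arrays (9.86 to 10.14), and the third ASP+CGP array is the lowest of its pool for Slc17a7 and Slc17a6.

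Markers of some other brain regions were higher in the pools in which Slc17a7 was higher. Of 12 thalamus markers, 8 were called higher in CGP vs CON and 9 in ASP+CGP vs CON, with median log2 fold changes of 0.281 and 0.305, and Prkcd, a protein kinase gene of thalamic relay neurons, had 0.42 ± 0.04 and 0.47 ± 0.04. Of 10 habenula markers, 8 and 4 were called higher (medians 0.432 and 0.277), and the habenular receptor gene Gpr151 had 0.81 ± 0.08 and 0.50 ± 0.08. Of 12 cerebellar granule cell markers, 1 was called higher in CGP vs CON and 5 in ASP+CGP vs CON (medians 0.0874 and 0.177). The striatum markers went the other way in CGP vs CON (8 of 8 below 0, 1 called lower, median -0.176) and had a median of 0.0633 in ASP+CGP vs CON. The cortex and hippocampus markers had medians of 0.0029 and 0.0708, with 1 of 9 called lower in each contrast and 1 higher in ASP+CGP vs CON. In ASP vs CON, 7 thalamus and 4 habenula markers were called higher (medians 0.173 and 0.132). The hypothalamus markers had medians of -0.198 and -0.176 in the contrasts of CGP and ASP+CGP with CON, with 5 and 6 of 15 called lower, among them the vasopressin gene Avp (-0.35 ± 0.04 and -0.55 ± 0.04). The part of these regional markers in the Slc17a7 difference was not tested.

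**Figure D4:**
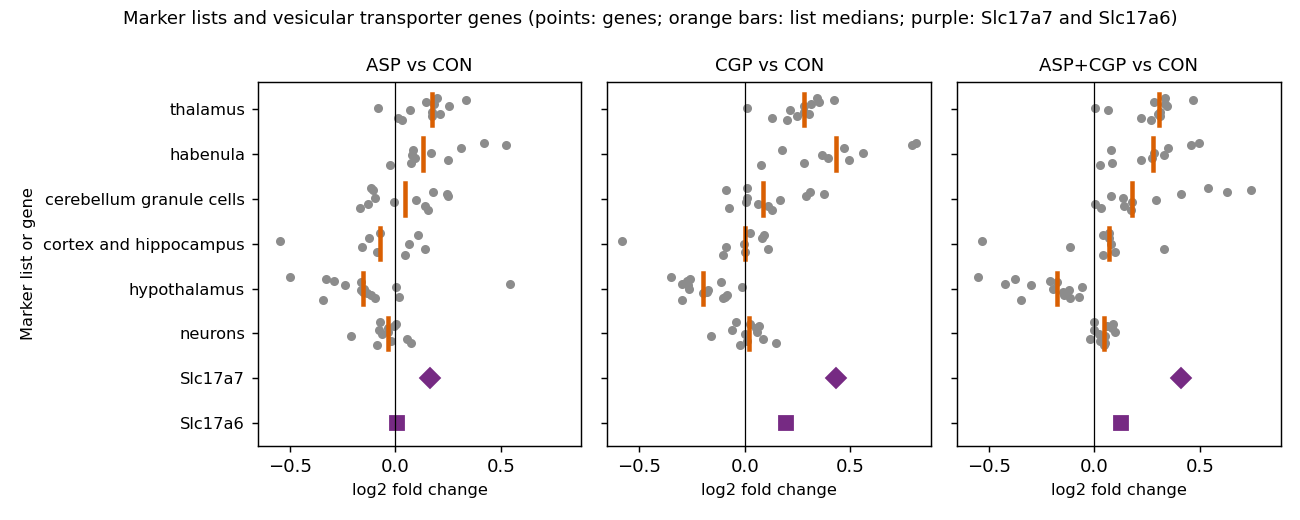
Log2 fold changes against CON of marker genes (grey points; orange bars, list medians) of 5 brain regions and of neurons, with Slc17a7 and Slc17a6 (purple), on a shared log2 axis. Thalamus and habenula medians lie above 0 in all 3 contrasts and hypothalamus medians below 0 (-0.154, -0.198 and -0.176), while Slc17a7 lies at 0.16 with ASP, 0.43 with CGP and 0.41 with both agents.

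Among the AMPA receptor subunits, which carry most fast excitatory transmission, the ASP pool was the lowest of the 4 pools for every gene. Gria2, whose edited product keeps AMPA channels impermeable to calcium, had log2 signals of 10.31, 10.24 and 10.43 in CON, 10.27, 10.29 and 10.26 in CGP, 10.17, 10.09 and 10.08 in ASP, and 10.34, 10.45 and 10.32 in ASP+CGP. All ASP arrays lay below all other arrays. Gria2 fell in ASP vs CON (-0.21 ± 0.05, 1.16-fold, adjusted p = 0.042) and was lower in ASP vs ASP+CGP (-0.26 ± 0.05, adjusted p = 0.0095). Gria3 had 9.88, 9.89 and 9.88 in CON, 9.92, 9.97 and 9.95 in CGP, 9.77, 9.86 and 9.78 in ASP, and 10.03, 10.15 and 9.96 in ASP+CGP. The ASP arrays were again the lowest, the ASP+CGP arrays lay above the CON arrays, and the difference in ASP vs ASP+CGP was -0.25 ± 0.05 (adjusted p = 0.0066). In ASP+CGP vs CON, Gria3 had 0.17 ± 0.05 (adjusted p = 0.11). Gria4 had 9.96, 9.98 and 9.85 in CON, 9.90, 9.95 and 9.92 in CGP, 9.78, 9.81 and 9.73 in ASP, and 9.92, 10.07 and 9.91 in ASP+CGP, with no ASP array reaching any other pool. It was lower in ASP vs ASP+CGP (-0.19 ± 0.05, adjusted p = 0.04) and had -0.15 ± 0.05 (adjusted p = 0.14) in ASP vs CON. Gria1 passed no test and had pool means from 11.69 in ASP to 11.81 in CGP.

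The kainate receptor subunits, which modulate transmitter release and slower excitatory currents, were called for Grik2 alone. Grik2 had log2 signals of 10.56, 10.50 and 10.50 in CON, 10.44, 10.50 and 10.44 in CGP, 10.41, 10.36 and 10.30 in ASP, and 10.53, 10.57 and 10.50 in ASP+CGP. The ASP arrays lay below all others, the difference in ASP vs ASP+CGP was -0.18 ± 0.04 (adjusted p = 0.023), and that in ASP vs CON was -0.16 ± 0.04 (adjusted p = 0.054). Grik1 and Grik4 had log2 fold changes of -0.15 ± 0.04 (adjusted p = 0.064) and -0.16 ± 0.04 (adjusted p = 0.059) in ASP vs CON, with ASP arrays below all CON arrays. Grik3 and Grik5 passed no test, and their ASP and CON arrays overlapped. The delta receptor gene Grid1, whose product organizes synapses through cerebellins, had 10.74, 10.80 and 10.65 in CON, 10.79, 10.76 and 10.78 in CGP, 10.68, 10.79 and 10.71 in ASP, and 10.79, 10.77 and 10.56 in ASP+CGP. Its pools overlapped apart from the low outlying ASP+CGP array, and its largest log2 difference from CON was 0.05 ± 0.06.

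Of the 7 metabotropic receptors, Grm8 was called in ASP vs CON. Grm8, Grm7 and Grm4 encode group III receptors, which couple to Gi proteins and restrain transmitter release. Grm6 encodes a further receptor of that group. Grm8 had log2 signals of 8.30, 8.24 and 8.29 in CON, 8.26, 8.23 and 8.26 in CGP, 8.06, 8.18 and 8.04 in ASP, and 8.14, 8.18 and 8.23 in ASP+CGP. Every ASP array lay below every CON and CGP array, and the log2 fold change in ASP vs CON was -0.19 ± 0.05 (1.14-fold, adjusted p = 0.039). Grm7 had 10.23, 10.28 and 10.20 in CON, 10.30, 10.39 and 10.30 in CGP, 10.12 on each array in ASP, and 10.25, 10.29 and 10.22 in ASP+CGP. The ASP arrays lay below all others and the pools differed by the F test (adjusted p = 0.036), with -0.12 ± 0.04 (adjusted p = 0.17) in ASP vs CON and -0.14 ± 0.04 (adjusted p = 0.073) in ASP vs ASP+CGP. Grm3, a group II receptor gene active in neurons and astrocytes, had 10.08, 10.12 and 10.11 in CON, 10.16, 10.32 and 10.26 in CGP, 10.03, 10.04 and 10.03 in ASP, and 10.30, 10.34 and 10.12 in ASP+CGP. The ASP arrays were the lowest, and the difference in ASP vs ASP+CGP was -0.22 ± 0.06 (adjusted p = 0.033). Grm4 had log2 fold changes of 0.18 ± 0.07 in ASP vs CON, 0.18 ± 0.07 in CGP vs CON and 0.17 ± 0.07 in ASP+CGP vs CON, none of which passed the adjustment (adjusted p = 0.17, 0.31 and 0.24). Grm2, Grm5 and Grm6 passed no test either.

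**Figure D5:**
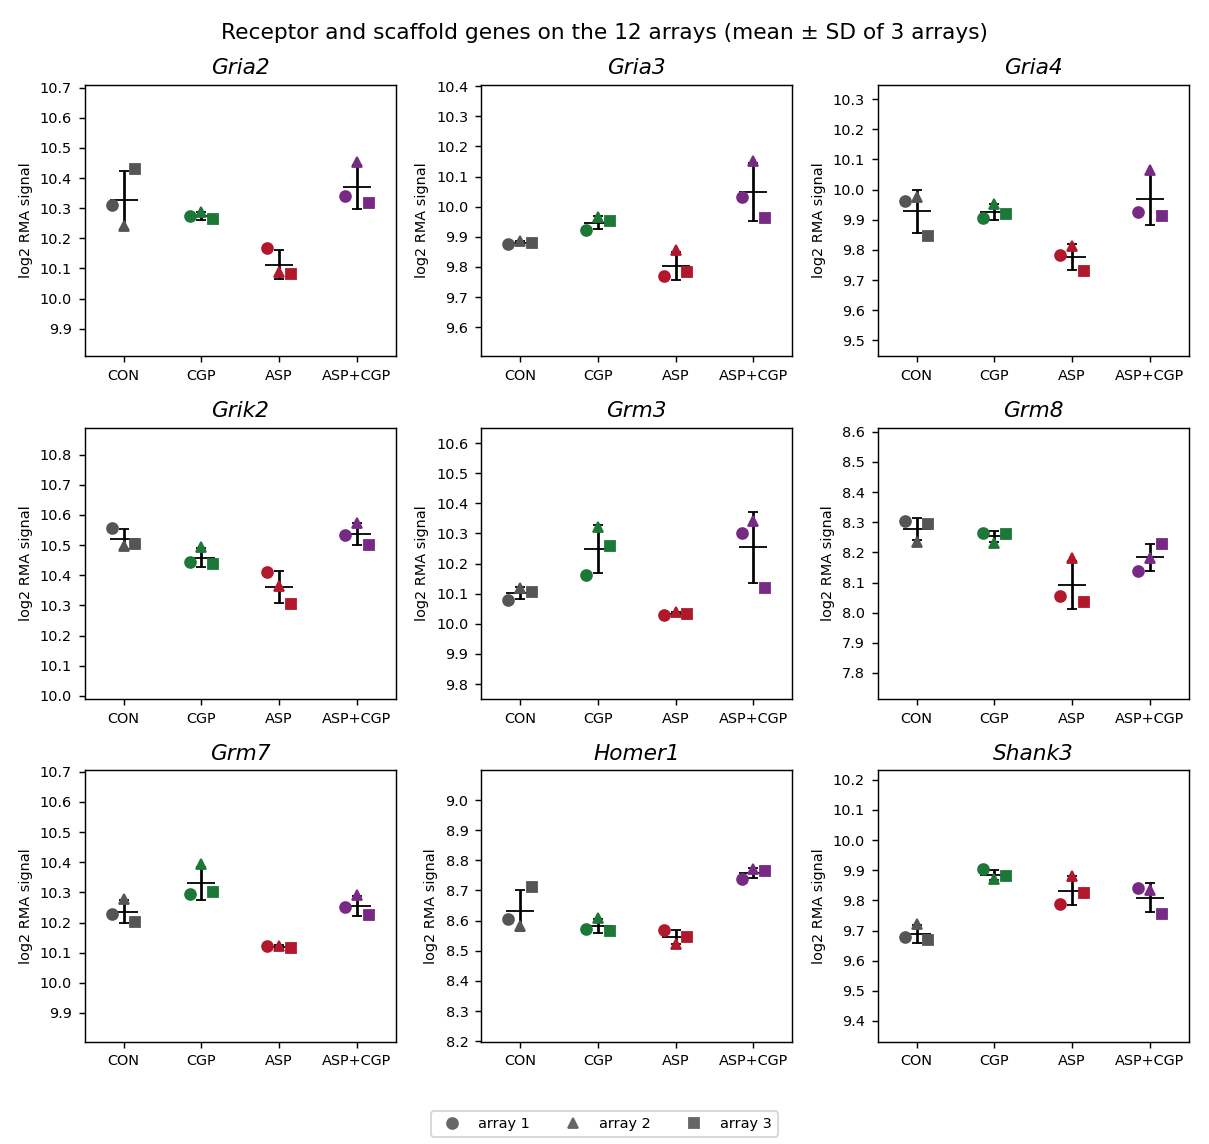
Log2 RMA signal of 9 receptor and scaffold genes on the 3 arrays of each pool (symbols number the arrays; bars, mean ± SD), each panel spanning the same log2 range. The ASP arrays are the lowest for Gria2, Gria3, Gria4, Grik2, Grm3 and Grm7, the ASP+CGP arrays the highest for Homer1, and the CON arrays the lowest for Shank3.

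Of the scaffolds, Homer1 and Shank3 differed among the pools. Homer1, which bridges group I metabotropic receptors and Shank and also gives rise to a short activity-induced form, had log2 signals of 8.60, 8.58 and 8.71 in CON, 8.57, 8.61 and 8.56 in CGP, 8.57, 8.52 and 8.55 in ASP, and 8.74, 8.77 and 8.77 in ASP+CGP. The ASP+CGP arrays lay above all others, and Homer1 was lower in ASP vs ASP+CGP by a log2 fold change of -0.21 ± 0.04 (adjusted p = 0.0071). In ASP+CGP vs CON it had 0.12 ± 0.04 (adjusted p = 0.18). Homer2 had 9.16, 9.14 and 9.10 in CON, 9.22, 9.20 and 9.29 in CGP, 9.20, 9.17 and 9.20 in ASP, and 9.34, 9.48 and 9.21 in ASP+CGP, with 0.21 ± 0.06 (adjusted p = 0.1) in ASP+CGP vs CON. All arrays of the other pools lay above the CON arrays, and a further probe set of Homer2 gave 0.151 in the same contrast. Homer3 had overlapping arrays in every contrast.

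Shank3, a core organizer of the postsynaptic density, had log2 signals of 9.68, 9.72 and 9.67 in CON, 9.90, 9.87 and 9.88 in CGP, 9.79, 9.88 and 9.83 in ASP, and 9.84, 9.84 and 9.75 in ASP+CGP. The CON arrays were the lowest, and the pools differed by the F test (adjusted p = 0.048). No single contrast with CON passed the adjustment, with 0.20 ± 0.04 in CGP (adjusted p = 0.06), 0.14 ± 0.04 in ASP (adjusted p = 0.084) and 0.12 ± 0.04 in ASP+CGP (adjusted p = 0.19). Shank1 passed no test. Shank2 is represented by 3 probe sets that disagreed, with log2 fold changes of 0.168, 0.129 and -0.057 in CGP vs CON, and no direction is given for it. The MAGUK genes passed no test in any contrast. Dlg3, which encodes SAP102 and had the largest range of pool means among them, had 9.65, 9.64 and 9.65 in CON, 9.68, 9.81 and 9.70 in CGP, 9.65, 9.59 and 9.53 in ASP, and 9.73, 9.71 and 9.62 in ASP+CGP. Its CGP arrays lay above the CON arrays by 0.08 ± 0.05 (adjusted p = 0.54). Dlg4, the PSD-95 gene, had pool means within 0.0889 of each other.

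The 5 plasma membrane carriers passed no test in any contrast. Slc1a1, the neuronal carrier EAAT3, had the largest range of pool means of the 5, with log2 signals of 10.33, 10.41 and 10.22 in CON, 10.45, 10.49 and 10.44 in CGP, 10.25, 10.34 and 10.32 in ASP, and 10.48, 10.48 and 10.25 in ASP+CGP. The CGP arrays lay above the CON arrays by 0.13 ± 0.06 (adjusted p = 0.44). The astrocytic carriers Slc1a2 (GLT-1) and Slc1a3 (GLAST) had their largest log2 differences from CON in CGP (0.08 ± 0.05 and 0.08 ± 0.10), and for Slc1a3 both outlying arrays (11.82 in CON and 11.66 in ASP+CGP) lay below the other 10, which ran from 12.02 to 12.14. Beside them, 0 of 11 astrocyte markers were called in any contrast and at most 2 had an unadjusted p under 0.05, with medians between -0.0424 and 0.0395. Slc1a4, a neutral amino acid carrier, passed no test, and Slc1a6, the carrier EAAT4 of Purkinje cells, had -0.14 ± 0.04 (adjusted p = 0.084) in ASP vs CON with ASP arrays below all CON arrays.

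Counted over the list, ASP vs CON gave 2 members called lower (Gria2 and Grm8) and 0 called higher, against 1.16% and 2.92% of all genes, and 11 members had an unadjusted p under 0.05, against 16.9% of all genes. The median log2 fold change was -0.0365 over the members and -0.013 over all genes. The ASP and CON arrays did not overlap for 14 lower and 5 higher members, against 13.9% and 9.93% of all genes. The neuron markers had a median of -0.0323, with 9 of 12 below 0. Of these 12 markers, 0 were called and 1 had an unadjusted p under 0.05. Their part in the lower values of the members was not tested. The Gria2 call held only without array 2 of CON or array 2 or 3 of ASP+CGP, and the Grm8 call only without array 2 of ASP or array 1 or 3 of ASP+CGP. Leaving out any of the other 9 arrays ended the call, with adjusted p up to 0.16 for Gria2 and 0.18 for Grm8. With arrays centred on neuron markers, an alternative chosen after seeing the data, both calls were lost (adjusted p = 0.068 and 0.13) and Shank3 was called higher (0.181, adjusted p = 0.012). Both were also lost with the array number as a block for the CON and ASP+CGP pools (adjusted p = 0.18 and 0.12), where Grik4 was called lower (-0.188, adjusted p = 0.04). Without the outlying arrays, Gria4, Grik2 and Grik4 were called lower in their place and 0 members higher, against 1.54% and 4.14% of all genes.

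ASP vs ASP+CGP gave the most calls, 7 members lower in ASP (Gria2, Gria3, Gria4, Grik2, Grm3, Slc17a7 and Homer1) and 0 higher, against 2.67% and 4.25% of all genes. The median log2 fold change was -0.0809 over the members and -0.0101 over all genes. All ASP arrays lay below all ASP+CGP arrays for 13 members, against 14.6% of all genes, with 0 members the other way, against 12.3%. The 13 include Shank2, whose 3 probe sets disagreed in this contrast too (0.0312, -0.156 and -0.122). The neuron markers had a median of -0.0819, with 10 of 12 below 0, 0 of 12 called and 4 at an unadjusted p under 0.05. When the arrays were centred on these 12 neuron markers, Gria2 (-0.18, adjusted p = 0.028) and Gria3 (-0.17, adjusted p = 0.015) stayed lower, and the adjusted p of Homer1, Grm3, Slc17a7, Grik2 and Gria4 were 0.052, 0.06, 0.06, 0.12 and 0.13. Grik3 (0.219, adjusted p = 0.044) and Grik5 (0.144, adjusted p = 0.034) then became higher in ASP, while 18.1% of all genes were called. The ASP pool also held the raised markers of adrenal cortex (10 of 11 called higher in this contrast, median 3.74), adipose tissue (9 of 9, median 2.58), exocrine pancreas (8 of 8, median 1.54), adrenal medulla (6 of 7, median 0.569) and pituitary (9 of 10, median 2.06). Cerebellar granule cell markers were lower in ASP (7 of 12 called, median -0.189), as were 2 of 8 striatum markers (median -0.111) and 1 of 12 thalamus markers (median -0.135, 11 of 12 below 0). Also called lower were 2 of 9 cortex and hippocampus markers (median -0.0406) and 1 of 10 habenula markers (median -0.0441). So were 2 of 11 oligodendrocyte markers (median 0.00783). Called higher in ASP were 3 of 9 endothelium markers (median 0.172) and 1 of 15 hypothalamus markers (median 0.0279). The part of these markers in the lower values of the members was not tested. Without the outlying arrays, 12 members were lower in ASP, the 7 named above and Grm5, Grm7, Slc1a1, Slc17a6 and Homer2, against 5.02% of all genes. Gria3 and Homer1 stayed called when any array was left out, and Gria2 when any but the third ASP array was (adjusted p = 0.05 without that array). Gria4, Grm3, Slc17a7 and Grik2 each lost the call without at least 4 of the arrays, with arrays 2 and 3 of ASP and 1 and 2 of ASP+CGP among them in every case, and the count fell to 2 without the third ASP array. With the array number as a block for CON and ASP+CGP, Gria2 (adjusted p = 0.069) and Grm3 (adjusted p = 0.058) lost the call.

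Whether the aspartame difference depended on CGP was tested as an interaction, the log2 difference of ASP+CGP from CGP minus that of ASP from CON. It was called above 0 for 3 members, Gria2 (0.31 ± 0.08, adjusted p = 0.038), Grik2 (0.24 ± 0.06, adjusted p = 0.044) and Homer1 (0.26 ± 0.06, adjusted p = 0.025), and below 0 for 0 members, against 1.23% and 2.78% of all genes. For these 3 genes the difference of ASP from CON was below 0 (-0.214, -0.16 and -0.088) and that of ASP+CGP from CGP above 0 (0.0963, 0.0777 and 0.175). An unadjusted p under 0.05 was found for 10 members, against 17.9% of all genes. With arrays centred on the neuron markers, the values were 0.243, 0.17 and 0.196 and did not pass (adjusted p = 0.057, 0.093 and 0.072), and Grm2 (-0.303, adjusted p = 0.044) and Shank3 (-0.285, adjusted p = 0.0058) were called below 0. Striatum markers were above 0 in the interaction for 8 of 8 genes (4 called, median 0.238) and hypothalamus markers for 13 of 15 (2 called higher and 1 lower, median 0.199), and cerebellar granule cell markers had a median of 0.102 (2 called higher and 1 lower). The part of these markers was not tested. With the array number as a block for CON and ASP+CGP alone, no member was called (adjusted p = 0.34, 0.15 and 0.24 for the 3 genes), against 2.04% of all genes. In that fit 6 members had an unadjusted p under 0.05, against 12% of all genes. The calls were also lost when any of 9 (Gria2), 10 (Grik2) or 5 (Homer1) of the 12 arrays was left out. Arrays 1 and 3 of CGP, 2 and 3 of ASP and 2 of ASP+CGP were among them for all 3 genes. Without the outlying arrays, 4 members were called above 0 and 0 below 0, against 1.21% and 3.26% of all genes. They were Gria2, Grik2 and Homer1 (adjusted p = 0.031, 0.031 and 0.028) and Gria4 (adjusted p = 0.05 when rounded). As stated above, such counts are no independent support.

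Of 81 other genes of the glutamatergic synapse that were listed, 70 were measured. In ASP vs CON, 3 were called higher and 3 lower, against 2.92% and 1.16% of all genes. The neutral amino acid and glutamine carrier Slc1a5 rose from 7.42, 7.40 and 7.38 in CON to 8.23, 8.15 and 8.37 in ASP, with every ASP array above all arrays of the other pools (1.81-fold, adjusted p = 1.3e-07), and no other gene of the 70 passed 1.4-fold. The markers of adrenal cortex, pancreas and adipose tissue named above were raised in the same pool, and their part in Slc1a5 was not tested. The other calls in this contrast were higher for Adcy1, a calcium-stimulated adenylyl cyclase (0.31 ± 0.05), and the phospholipase gene Plcb3 (0.17 ± 0.05), and lower for Neto1 (-0.22 ± 0.05), an auxiliary subunit of kainate receptors, the cystine and glutamate exchanger Slc7a11 (-0.22 ± 0.05) and the synaptic adhesion gene Lrrtm4 (-0.20 ± 0.05). In CGP vs CON, 2 were called higher and 0 lower, against 0.489% and 0.14% of all genes. They were Adcy1 (0.33 ± 0.05) and Plcb4 (0.25 ± 0.05), a phospholipase that acts downstream of group I metabotropic receptors. ASP+CGP vs CON gave 3 higher and 0 lower, against 0.826% and 0.919% of all genes. They were Plcb4 (0.32 ± 0.05), Adcy1 (0.30 ± 0.05) and the scaffold gene Cnksr2 (0.26 ± 0.05). The thalamus markers had medians of 0.173, 0.281 and 0.305 in ASP, CGP and ASP+CGP vs CON, with 0 of 12 called lower in each. Their part in Adcy1 and Plcb4 was not tested. The contrasts with CON share the CON arrays, so the calls for Slc17a7 and Plcb4 against CON in the CGP and ASP+CGP pools, and for Adcy1 in all 3, are not independent of each other. In ASP vs ASP+CGP, Slc1a5 was higher and Cnksr2, Plcb4, Neto1 and Lrrtm4 were lower, where 4.25% and 2.67% of all genes were called. In the interaction, Neto1 had the largest value above 0 (0.45 ± 0.07, adjusted p = 0.0018), with Cnksr2 and Lrrtm4 also called above 0, and Slc1a5 (-0.998 ± 0.076) and Adcy1 (-0.33 ± 0.06) were called below 0. Of all genes, 1.23% were called above 0 and 2.78% below 0. The 6 measured subunit genes of the other glutamate receptors, all of the NMDA type, were called in no contrast, and at most 2 had an unadjusted p under 0.05.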

How the data were processed

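Gene expression in hypothalamic RNA, pooled within each of 4 groups, was measured on 12 Affymetrix Mouse Gene ST arrays (3 per pool), which the sample labels assign to groups. The deposited values are log2 signals that the authors made with Partek software by RMA, that is, background correction, quantile normalization and summary by median polish, so that a change of most genes in 1 direction would be removed and changes near background are understated. Probe sets with exactly 1 gene symbol in the platform annotation (19019 of 29149) entered when 3 or more arrays reached a signal of 6 (18810), and the probe set with the highest mean was used per gene, leaving 17186 genes. The number of arrays limits the precision.

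A linear model with a mean per pool was fitted to each gene, with moderated variances and 8 residual degrees of freedom (limma 3.58.1, R 4.3.3), with Benjamini-Hochberg adjustment within each contrast. With 3 arrays against 3, an exact permutation test cannot go below 0.1 and was not made per gene. The steps were tested on simulated data. The 35 members, the other pathway genes, the marker lists and the motifs were chosen with earlier results of these data known. Members passing the F test, members called in any contrast and the member of each role with the widest range of pool means were described array by array; Slc17a6, Slc17a8 and Slc1a3 were added after their values were seen. For other pathway genes, up to 4 called genes per direction were named in each contrast, and up to 2 markers per list. Figures were drawn with matplotlib 3.10.9. The deviations of same-numbered arrays from their pool means correlated over 0.1 in 6 of 18 pairs across genes, among them all 3 pairs of CON with ASP+CGP (0.17, 0.256 and 0.541), where 0.541 was the pair of outlying arrays. The labels name no shared batch, and a replicate block was fitted for all pools and, as an alternative added later, for CON and ASP+CGP alone. Further alternatives were other signal filters, probe set rules, normalizations, variance models, adjustments and fold thresholds, centring on neuron markers and fits without arrays.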

Additional observations from a re-analysis of the deposited data

Results flagged for a closer look

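For 3 genes the aspartame difference with CGP differed from that without it by a test of the interaction in the limma fit. The interaction was 0.31 on the log2 scale for Gria2 (adjusted p = 0.038), 0.238 for Grik2 (adjusted p = 0.044) and 0.263 for Homer1 (adjusted p = 0.025). In Gria2 and Grik2 the low pool was ASP, whereas in Homer1 the ASP+CGP pool was the high one. Of the 25 alternatives in which the interaction was tested, the call held in 12 for Gria2, 13 for Grik2 and 18 for Homer1. With 1 pool per group, a dependence on CGP and other differences between the pools cannot be told apart.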

How the results depend on the processing

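No log2 fold change of a called member reversed its direction under any alternative. Gria3 in ASP vs ASP+CGP stayed called under all 27 alternatives, Homer1 in that contrast and Slc17a7 against CON in CGP and in ASP+CGP under 26, Gria2 in ASP vs ASP+CGP under 25, and Gria2 and Grm8 in ASP vs CON under 12. When each array was left out in turn, the number of members called ranged from 0 to 7 in ASP vs CON, from 1 to 3 in CGP vs CON, from 1 to 6 in ASP+CGP vs CON, from 2 to 9 in ASP vs ASP+CGP, from 0 to 3 in the interaction and from 1 to 10 by the F test. The highest counts of the contrasts and of the F test, that of the interaction aside, came without the third ASP+CGP array, and there 1 member passed 1.4-fold in ASP+CGP vs CON (range 0 to 1). With array weights (0.281 for array 3 of CON and 0.219 for array 3 of ASP+CGP) the counts were 7 in ASP vs CON, 6 in CGP vs CON, 10 in ASP+CGP vs CON, 11 in ASP vs ASP+CGP, 5 in the interaction and 19 by the F test, while the shares of all genes called rose to 7.55%, 5.03%, 7.35%, 11.3%, 7.22% and 18%. Without both of these arrays they were 3 in ASP vs CON, 4 in CGP vs CON and 7 in ASP+CGP vs CON. They were 12 in ASP vs ASP+CGP, 4 in the interaction and 15 by the F test. The shares of all genes called were then 5.68%, 1.8%, 4.05%, 9.97%, 4.47% and 12%.

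In ASP vs CON the count of 2 became 4 with a mean signal of at least 7, with further quantile normalization or with an intensity trend, 5 without moderation of the spread, 1 with median-centred arrays, 1 with neuron centring (Shank3, higher, with both calls lower lost), and 0 when only the groups compared were fitted. In CGP vs CON the count of 1 became 2 with a mean signal of at least 7, further quantile normalization, an intensity trend or adjustment over the 4 contrasts together. In ASP+CGP vs CON the count of 1 became 2 with the mean over probe sets or with neuron centring, 3 with further quantile normalization and 0 when only the groups compared were fitted. In ASP vs ASP+CGP the count of 7 became 3 when only the groups compared were fitted, 4 with adjustment over the 4 contrasts and 4 with neuron centring, and neuron centring left 2 by the F test. At a fold threshold of 1.2 in place of 1.4, 1 member passed in CGP vs CON, 1 in ASP+CGP vs CON and 2 in the interaction. With neuron centring, 4.87% of all genes were called in ASP vs CON, 4.54% in ASP+CGP vs CON, 18.1% in ASP vs ASP+CGP and 12% by the F test. Shares of all genes are not given for the other alternatives here, the fits without single arrays or the replicate block for all pools. Those counts thus do not show whether a change is particular to the members. The cause of these changes was not tested.

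With the replicate block for all pools the count in ASP vs CON was 1, and no other count of members moved by over 1.5 times. With the replicate block restricted to the CON and ASP+CGP pools, chosen after seeing the data, the count was 1 in ASP vs CON (Grik4), 3 in ASP+CGP vs CON and 0 in the interaction, and it stayed within 1.5 times elsewhere. The shares of all genes called in these 3 tests were then 3.4%, 4.29% and 2.04%.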
